A study of Nicotiana tabacum with 8 samples.

Results

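Phenylalanine ammonia-lyase (PAL) removes the amino group of phenylalanine to give cinnamate, which is the entry step of the phenylpropanoid pathway in plants. Lignin of the cell wall, flavonoids, coumarins and chlorogenate, a major phenolic of tobacco leaves, are made from cinnamate, and part of the salicylate of plants can come from it too. PAL is encoded by a family of similar genes in tobacco and in tomato, and wounding, light and microbes are known to induce it. The genes described here are the 8 tomato PAL genes on which tobacco reads were counted, out of 34725 tomato coding sequences. They were selected by name and not by their values, although earlier results of these data were known. The deposited files carry no gene descriptions, so their identity as PAL genes rests on the tomato numbers. Their numbers place 4 of them side by side on chromosome 9 (Solyc09g007890, Solyc09g007900, Solyc09g007910 and Solyc09g007920), 1 each on chromosomes 3, 5 and 10 (Solyc03g042560, Solyc05g056170 and Solyc10g086180), and 1 among sequences not assigned to a chromosome (Solyc00g282510).

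The libraries came from shoot tips of tobacco (Nicotiana tabacum) of the cultivar Samsun, grown in vitro on a sucrose-containing medium. Seedlings aged 6 days (the growth stage tag of every library reads 10 days) were kept for 10 days either without fungus (control, 4 libraries, numbered 9 to 12) or in a vessel shared with a culture of the fungus Cladosporium sphaerospermum TC09, so that its volatiles reached them (TC09-exposed, 4 libraries, numbered 13 to 16). The exposure tag set the group, because the treatment text of every library describes culture without exposure. A vessel held 3 seedlings, which the labels describe as collected together while the study's methods describe single plants, so the p-values measure the spread between these libraries and some may share a vessel. No gene name other than those of the study's table comes with the Solyc numbers, so the tissue could not be checked against marker genes. Each library held 7853857 to 9674090 total gene reads, of which 4.62% to 5.59% matched more than 1 gene.

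None of the 8 PAL genes passed the test for a change after exposure to TC09. All 8 passed the filter on low counts, and 0 of 8 were called in either direction at an adjusted p of 0.05 (edgeR quasi-likelihood test, Benjamini-Hochberg adjustment over 19325 genes), where 21.5% of all tested genes were called. One gene, Solyc09g007910, had an unadjusted p below 0.05, against 35.3% of all tested genes. DESeq2 and limma-voom called 0 of the 8 as well. The fitted ratios of exposed over control lay between 1.04-fold and 1.43-fold. The median log2 fold change of the 8 was 0.22, beside 0.01 over all tested genes, and all 8 were above 0, as 51.3% of all tested genes were. Without control library 11 that median was 0.05, and 6 of the 8 were above 0. The exposed and control libraries overlapped in all 8 genes, whereas they did not overlap in 25% of the genes tested. In whole shoot tips a change in the number of cells that express a gene and a change in its RNA per cell cannot be told apart.

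**Figure D1:**
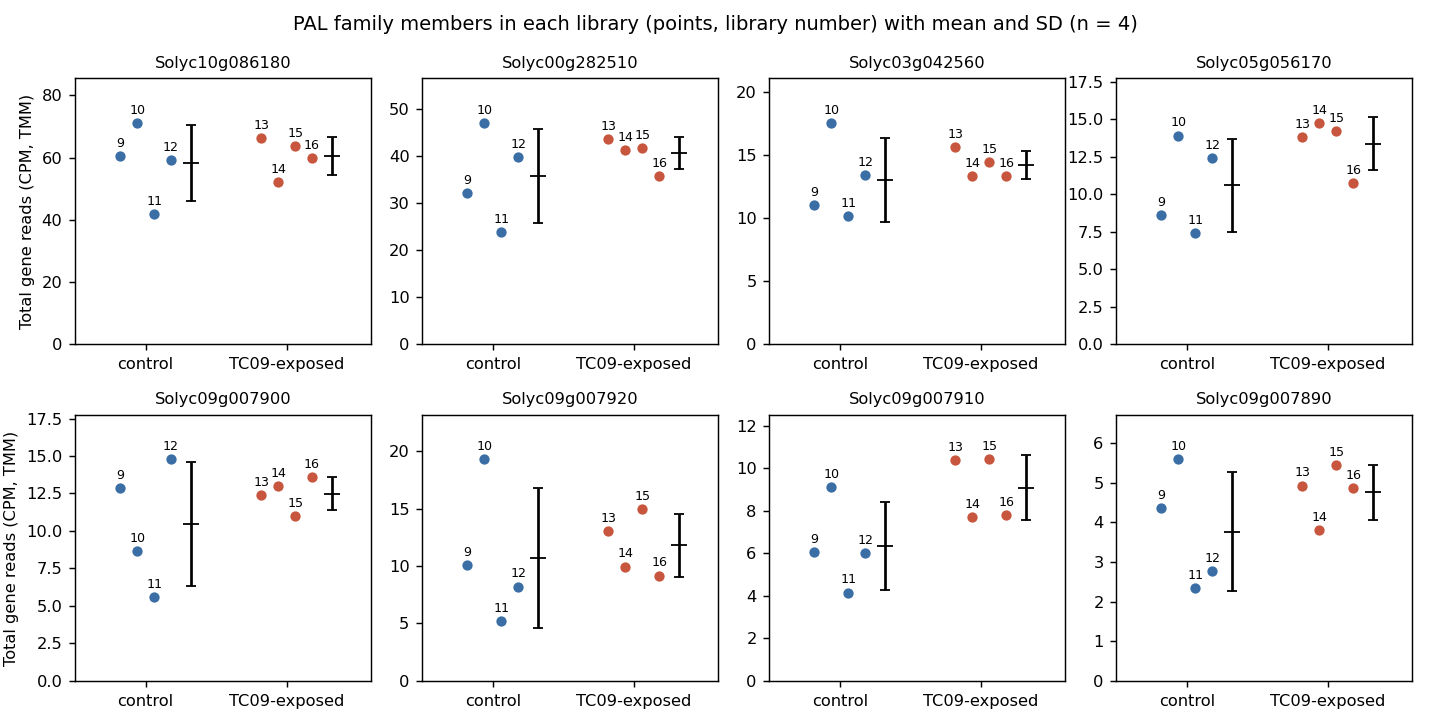
Total gene reads of the 8 PAL genes in counts per 1e6 reads (CPM, scaled by TMM), one panel per gene and one point per library with its number; the bars give mean and SD (n = 4). The control and TC09-exposed points overlap in every panel, and control library 11 is the lowest of the 8 libraries in every panel.

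The level of each gene was compared with the others per coding length, as deposited TPM (total gene reads per coding length, scaled to a common sum). TPM lacks the TMM scaling, so its group means do not measure the response to exposure. The ratio of exposed over control for the family sum was 1.21 in TPM and 1.12 in CPM. Solyc10g086180 was the most abundant member at 24.6 ± 4.50 TPM in the control and 27.6 ± 2.27 TPM in the exposed libraries (SD, n = 4 each). It held 30.5% to 38.4% of the TPM of the family in a library. Solyc00g282510 followed at 18.2 ± 4.77 TPM and 22.5 ± 3.05 TPM (SD, n = 4 each), and Solyc03g042560 at 8.42 ± 1.94 TPM and 9.92 ± 0.951 TPM (SD, n = 4 each). These 3 genes kept this order in all 8 libraries, and Solyc03g042560 lay above the next gene, Solyc05g056170, in all 8. That last step depends on the measure, as Solyc03g042560 has the shorter coding length (1401 against 2130 bases). Without division by length, it had 970 total and 605 unique reads over the 8 libraries, beside 858 and 854 for Solyc05g056170. In library 14 its total reads were the lower ones (119 against 132). Solyc05g056170, Solyc09g007900 and Solyc09g007920 could not be ranked. Their means over the 8 libraries were 5.35, 5.02 and 4.87 TPM, and each lay above the next in only 5 of 8 libraries. Solyc09g007910 (mean 3.37 TPM) and Solyc09g007890 (mean 1.86 TPM) had the lowest means and lay in that order in all 8 libraries. The 4 genes of the chromosome 9 cluster together held 15.4% to 21.6% of the TPM of the family. Tobacco reads find a tomato sequence less well where it has diverged, so an order among tomato genes is an order of reads captured.

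The coding sequences of 6 members are 2130 to 2166 bases long. Those of Solyc00g282510 (1776 bases) and Solyc03g042560 (1401 bases) are shorter. RefSeq's tobacco gene table (assembly ASM71507v2, cultivar K326) lists 4 genes under the synonyms palA, palB, pal4 and NtPAL. None of its entries carries a Solyc number, so the tobacco gene behind each tomato number was not determined.

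Reads that matched more than 1 gene were unevenly spread over the family. Nearly all reads of Solyc05g056170 (99.5%) and of Solyc10g086180 (94.3%) were unique over the 8 libraries, and 81.0% of those of Solyc00g282510. The share was 62.4% for Solyc03g042560, 61.0% for Solyc09g007890 and 58.7% for Solyc09g007910. Solyc09g007900 and Solyc09g007920 had the lowest shares, 17.7% and 16.3%, so they rest on 145 and 131 unique reads out of 818 and 806. These genes of the chromosome 9 cluster are uncertain as separate genes.

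**Figure D2:**
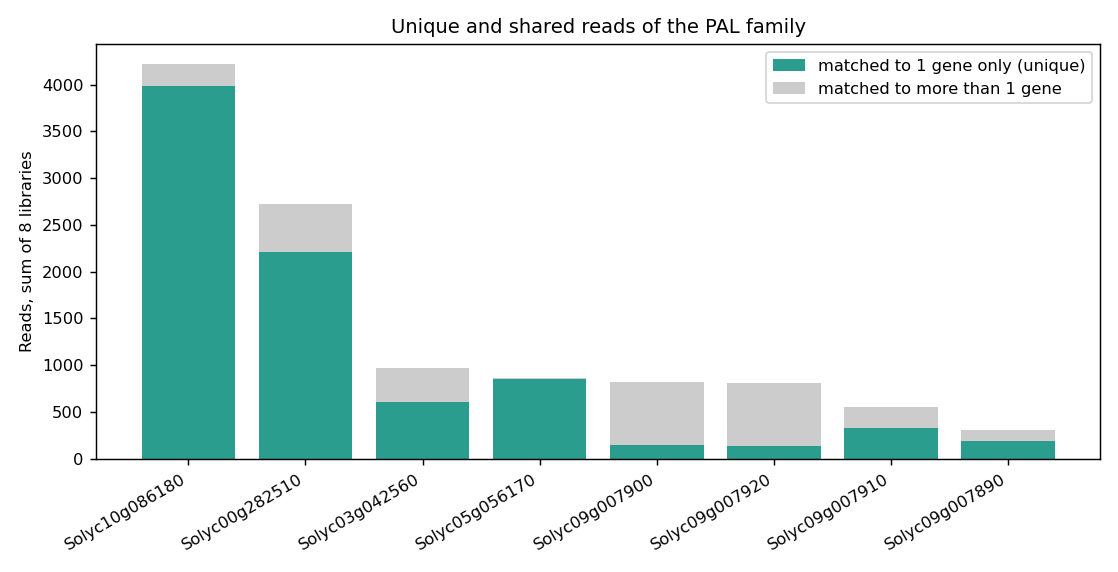
Reads of each PAL gene summed over the 8 libraries, split into reads matched to 1 gene only and reads matched to more than 1 gene. The gray part is the larger one in Solyc09g007900 (673 of 818 reads) and Solyc09g007920 (675 of 806 reads) and is nearly absent in Solyc05g056170 (4 of 858 reads).

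Solyc10g086180 stood at 60.5, 71.2, 42.0 and 59.3 CPM in control libraries 9 to 12 and at 66.4, 52.3, 63.6 and 59.9 CPM in exposed libraries 13 to 16. The exposed values all fell inside the range of the controls. This gives a log2 fold change of 0.06 with a standard error of 0.147 (edgeR, adjusted p = 0.819) and a 95% interval of 0.83-fold to 1.30-fold. On unique reads it was 0.04 (standard error 0.144, adjusted p = 0.857, edgeR).

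Solyc00g282510 had 32.2, 47.1, 23.9 and 39.8 CPM in the controls and 43.7, 41.4, 41.7 and 35.8 CPM after exposure. The highest and the lowest of the 8 libraries were both controls. Its ratio was 1.14-fold, with a 95% interval from 0.86-fold to 1.49-fold (adjusted p = 0.494, edgeR).

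Solyc03g042560 had 11.02, 17.6, 10.1 and 13.4 CPM in the controls and 15.7, 13.3, 14.5 and 13.4 CPM after exposure. Here too the exposed libraries lay within the control range. The ratio was 1.09-fold, with a 95% interval from 0.84-fold to 1.41-fold (adjusted p = 0.649, edgeR).

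Solyc05g056170, the member with hardly any shared reads, had 8.602, 13.9, 7.41 and 12.4 CPM in the controls and 13.8, 14.8, 14.2 and 10.8 CPM after exposure. Libraries 14 and 15 lay above the highest control, and library 16 lay below control libraries 10 and 12. The log2 fold change came to 0.33 with a standard error of 0.202 (edgeR, adjusted p = 0.267). The 95% interval ran from 0.92-fold to 1.72-fold.

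In the chromosome 9 cluster, Solyc09g007910 had the highest ratio of the family. Its values were 6.06, 9.13, 4.16 and 5.997 CPM in the controls and 10.4, 7.72, 10.4 and 7.82 CPM after exposure. Libraries 13 and 15 lay above every control, and libraries 14 and 16 lay below control library 10 and above the other 3 controls. The log2 fold change came to 0.52 (standard error 0.226, unadjusted p = 0.0441, adjusted p = 0.130, edgeR), which is 1.43-fold with a 95% interval from 1.01-fold to 2.02-fold. On unique reads it was 0.59 (standard error 0.277, adjusted p = 0.156, edgeR). The gene passed the test in 2 of the alternatives and in none of the others. The 2 were the fit without control library 10 (adjusted p = 0.0293, edgeR) and limma-voom with library weights (0.0428). The weighted fit was added after seeing the data. Over the whole table, 3897 of 19603 and 5483 of 19325 genes passed in these 2 fits. Its adjusted p over all alternatives ranged from 0.0293 to 0.268, the upper value without exposed library 13 (log2 fold change 0.45), and it was 0.257 without control library 11 (0.38).

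The other 3 genes of the cluster overlapped widely between the groups. Solyc09g007890 had 4.36, 5.59, 2.34 and 2.78 CPM in the controls and 4.93, 3.81, 5.46 and 4.87 CPM after exposure (1.26-fold, adjusted p = 0.397, edgeR). Solyc09g007900 had 12.8, 8.67, 5.59 and 14.8 CPM in the controls and 12.4, 12.98, 11.02 and 13.6 CPM after exposure (1.19-fold, adjusted p = 0.511, edgeR). Its exposed libraries lay close together inside a wide control range. Solyc09g007920 had 10.1, 19.3, 5.20 and 8.22 CPM in the controls and 13.04, 9.96, 14.98 and 9.18 CPM after exposure (1.10-fold, adjusted p = 0.802, edgeR). Its 95% interval, from 0.66-fold to 1.85-fold, was the widest of the family on total reads. The standard errors of the 8 members had a median of 0.214, beside 0.157 over all tested genes.

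Which of Solyc09g007900 and Solyc09g007920 had more reads differed between libraries. The ratio of Solyc09g007920 to Solyc09g007900 in total reads was 0.783, 2.22, 0.930 and 0.556 in control libraries 9 to 12 and 1.05, 0.767, 1.36 and 0.675 in exposed libraries 13 to 16. In unique reads alone it was 0.789, 1.77, 0.875 and 0.391 in the controls and 1.11, 0.833, 1.19 and 0.667 after exposure. The order of the libraries was nearly the same on total and on unique reads. Unique reads are part of the total reads, so this likeness is not independent support for the order. The unique ratios rest on only 7 to 25 reads per gene and library. Which genes their shared reads also matched is not recorded, and how those reads were divided was not examined. Taken as 1 pair, the genes had 22.9, 28.0, 10.8 and 23.0 CPM in the controls and 25.4, 22.9, 26.0 and 22.8 CPM after exposure. With the pair summed, every library except control library 11 lay between 22.8 and 28.0 CPM. No other pair of members was summed for comparison.

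**Figure D3:**
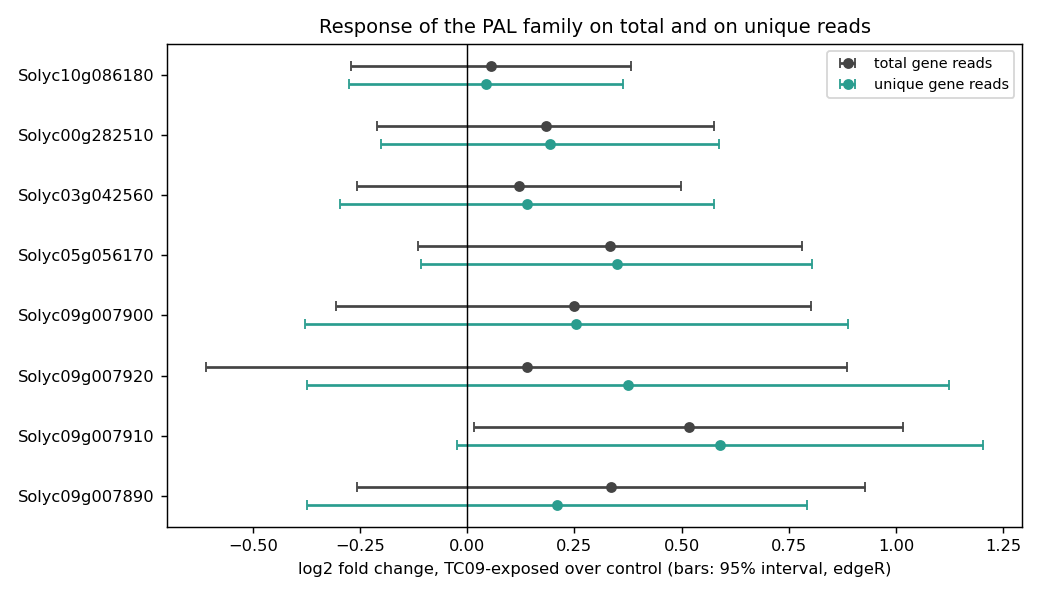
Log2 fold change of TC09-exposed over control for each PAL gene on total and on unique gene reads (x axis), with 95% intervals from edgeR; genes are ordered by TPM. On total reads the interval of Solyc09g007910 alone lies above 0 before adjustment, and on unique reads every interval includes 0.

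On unique reads alone no member passed the test either. Of the 8 genes, 0 were called (edgeR, lowest adjusted p = 0.156), where 21.8% of the 19073 genes tested on unique reads were called, and 0 had an unadjusted p below 0.05, against 35.6%. Their log2 fold changes lay between 0.04 and 0.59 with a median of 0.23. Solyc09g007920 differed the most between the counts, with a log2 fold change of 0.14 on total and 0.38 on unique reads. Its standard error was 0.337 in each fit. Both counts share libraries and reads, so these standard errors do not measure the error of that difference, which was not tested.

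The sum of the family stood at 145.6, 192.5, 100.7 and 156.7 CPM in control libraries 9 to 12 and at 180.4, 156.2, 175.8 and 155.3 CPM in exposed libraries 13 to 16. The means were 148.9 ± 37.8 CPM and 167.0 ± 13.04 CPM (SD, n = 4 each), a ratio of 1.12 with ranges that overlap. Control library 10 had the highest sum and control library 11 the lowest. The chromosome 9 cluster had a ratio of 1.22 and the 4 genes outside it a ratio of 1.10. On unique reads the ratio was 1.33 for the cluster, 1.09 for the 4 genes outside it and 1.11 for the family. These sums were not tested, because the members were chosen with results of these data known.

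Control library 11 was the lowest of the 8 libraries in all 8 genes on total reads and in 7 of 8 on unique reads. Over all tested genes it was the lowest in 16.6%. In that library the 8 genes stood at 41.5% to 72.3% of the mean of the other 3 controls. It was also the library with the fewest total gene reads (7853857) and the smallest share of shared reads (4.62%), and the part of these in its low PAL level was not tested. The coefficient of variation among the controls was 20.8% to 56.8% and among the exposed libraries 7.84% to 22.9%. It was larger among the controls in all 8 genes, while this held for 39.5% of all tested genes. Without library 11 the controls still varied more than the exposed libraries in all 8 genes (34.3% of all tested genes). The margin was then narrow for Solyc10g086180, at 10.3% and 10.1%. The members share the same libraries and reads, so these 8 counts are not independent of each other.

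**Figure D4:**
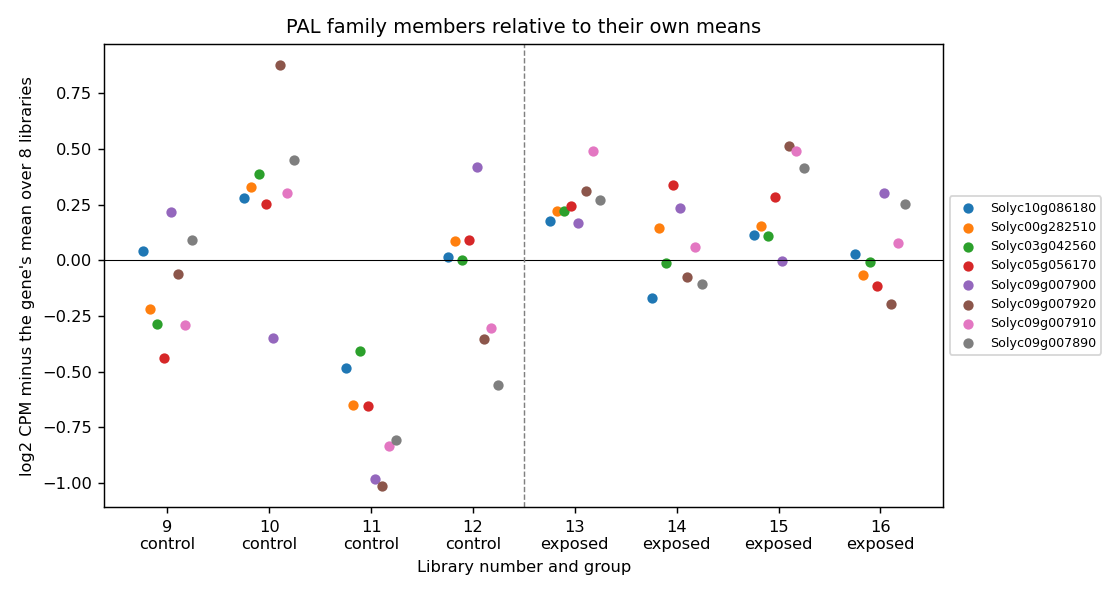
Log2 CPM of each PAL gene minus its own mean over the 8 libraries (y axis, log2 scale), by library and group; each color is a gene. All 8 genes lie below their mean in control library 11, and 7 of 8 lie above it in control library 10.

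Within the family, Solyc09g007910 made up a larger part of the reads after exposure. It held 4.16%, 4.74%, 4.13% and 3.83% of the total reads of the family in the controls and 5.77%, 4.94%, 5.93% and 5.03% after exposure. On unique reads the shares were 3.40%, 3.46%, 2.19% and 3.38% in the controls and 4.92%, 4.04%, 4.54% and 3.82% after exposure. It was the only 1 of the 8 members whose share did not overlap between the groups, on either count. Over all tested genes the ratio to the family sum did not overlap in 11.9% on total and 12.6% on unique reads, so 1 of 8 is near the background. The difference was noticed in the values and was not tested.

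Coumarins are made from cinnamate, and the study's table places 9 cytochrome P450 and O-methyltransferase genes in the synthesis of coumarins and furanocoumarins. Further genes of the phenylpropanoid pathway were not analysed here. Low counts kept 2 of the 9 listed genes from being tested. All 7 others rose after exposure (edgeR, adjusted p at or below 0.05), where 9.56% of all tested genes rose. The study chose these genes on the same libraries, so neither their count nor the size of their changes is independent evidence. Their log2 fold changes ran from 0.90 to 1.97 with a median of 1.58. The PAL genes were not chosen in this way, so the sizes of the 2 lists are not comparable. The largest among these 7 was that of Solyc01g068550, an O-methyltransferase, an enzyme that adds methyl groups. This gene stood at 2.12 ± 0.921 CPM in the control and 8.48 ± 2.93 CPM after exposure (SD, n = 4 each), with an adjusted p of 0.00275 in edgeR. The smallest was that of O-methyltransferase 3 (Solyc10g008120), at 3.30 ± 0.876 CPM and 6.20 ± 1.37 CPM (SD, n = 4 each), with an adjusted p of 0.0211 in edgeR. The O-methyltransferases that were not tested, Solyc10g047520 and Solyc06g064500, had 2 control reads each, and 24 and 39 exposed reads. With no filter on counts, all 9 listed genes were tested and called higher (edgeR), where 1832 of 26833 genes were called higher. All 9 were far less abundant in reads than the leading PAL genes, with group means under 10 CPM. Whether the PAL genes and these genes respond differently was not tested. Without control library 9 or 11, 4 of the 7 were called in each case (edgeR).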

How the data were processed

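The PAL genes were given by their Solyc numbers and matched to the part of the deposited name before its first dot. The authors trimmed the reads, mapped them to tomato with CLC Genomics Workbench (the sources used here name no annotation release) and deposited whole-number counts of total and unique gene reads per coding sequence. The deposited TPM values are total gene reads per coding length, and served only to compare levels between genes. Members and lists were chosen with earlier results of these data known.

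Counts were tested in edgeR (version 4.0.16, R version 4.3.3) with filterByExpr defaults (minimum count 10, minimum total 15), TMM factors (0.938 to 1.10), a quasi-likelihood fit with condition as the only term, and Benjamini-Hochberg adjustment over all 19325 genes kept. Standard errors are the size of the log2 fold change over the root of F, and the 95% interval uses the fit's degrees of freedom. The same fit was run on unique reads (19073 genes). The procedure was also run on simulated data, in which genes were drawn independently of each other. No result given here rests on that run. The genes named are all 8 members, the extremes of the coumarin list (and its untested genes, named after their counts were seen), and the 3 genes nearest in pattern to the most abundant member. Alternatives were other filters, RLE or library-size scaling, leaving out genes over 1% of a library, DESeq2 (version 1.42.0), limma-voom (limma version 3.58.1), a threshold of 0.01 and leaving out each library. Limma-voom with library weights was added after seeing the data. No sequence of the members is printed, as none is held in the tables used here.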

Additional observations from a re-analysis of the deposited data

Results flagged for a closer look

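In unique reads, Solyc09g007900 stood at 2.86 CPM in exposed library 16, apart from the other 3 exposed libraries at 2.13 to 2.20 CPM. The value rests on 24 unique reads, beside 18 to 21 in those libraries. It was the only far-lying library in 36 groups of 4 values examined, and chance alone gives such a gap in about 5% of groups.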

How the results depend on the processing

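The number of PAL genes called was 0 in edgeR with the other filters, scalings, counts and threshold, in DESeq2 and in limma-voom. It was 1 with library weights in limma-voom, where 5483 of 19325 genes were called over the whole table. Leaving out single libraries gave 0 to 1. The 1 was Solyc09g007910 without control library 10, where 3897 of 19603 genes were called. Without control library 11 the log2 fold changes of Solyc09g007920 and Solyc10g086180 turned to -0.071 and -0.061 (up to 0.59 and 0.17 without other libraries), and no other alternative turned the direction of a member. The log2 ratio of the family sum was 0.17, and 0.02 to 0.31 without single libraries. It was 0.27 with scaling by library size only, which shifts the median log2 ratio of the whole table from 0.01 to 0.11 and the calls from 1847 higher and 2317 lower to 3057 and 1663. Genes called over the whole table numbered 4164, and 1732 at an adjusted p of 0.01. Leaving out single libraries gave 2636 to 5438, with 2636, 2648 and 2741 without control library 9, control library 11 and exposed library 13. Of the 7 coumarin-pathway genes called, 1 remained testable and called with a mean of at least 50 reads, 4 were called at 0.01, and 4 to 7 without single libraries. With no filter, 9 of 9 were tested and called. Fewer genes or libraries in a fit can by themselves lower a count, and other causes were not tested. No paired analysis was possible because the groups share no replicate number. Depth limits the members of the chromosome 9 cluster most, which had 7 to 61 unique reads per library.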

Other observations

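The genes outside the family whose libraries followed Solyc10g086180 most closely were Solyc11g017440, Solyc06g072080 and Solyc11g066470. Likeness was measured over 8 libraries as the root mean square difference of log2 CPM after centering each gene on its own mean, and was 0.08 for each of the 3, beside a median of 0.34 over all tested genes. Solyc11g017440 had 22.7, 24.9, 13.9 and 19.9 CPM in the controls and 25.3, 19.3, 20.9 and 21.3 CPM after exposure, with control library 11 its lowest too. The 3 genes were picked for their likeness, so neither the small distances nor this shared low library is separate evidence. The files pair none of the 3 with a name. Among the members, Solyc03g042560 (0.14) and Solyc00g282510 (0.16) were the nearest to Solyc10g086180, with 86 and 264 genes outside the family nearer still. Solyc09g007900 was the farthest (0.36), with 10850 genes outside the family nearer.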
